A study of Homo sapiens with 18 samples.

Results

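The interleukin-1 (IL-1) family of the keratinocyte was described here through 8 transcripts: the agonists IL1A, IL1B, IL18, IL33 and IL36G, the receptor antagonists IL1RN and IL36RN, and IL1RAP, the receptor subunit that IL-1, IL-33 and IL-36 receptors share. They were taken by symbol from a table of 15896 genes. All 8 were listed, and all 8 passed the filter on low values, IL36RN only through the ad-TEADi group at 48 h in which it is high. The cells were N/TERT2G, an immortalized line of human keratinocytes grown in EPILIFE medium with a keratinocyte growth supplement. One day after plating, every culture received an adenovirus at a multiplicity of infection (MOI) of 25. The ad-TEADi virus carried green fluorescent protein (GFP) joined to the TEAD-binding parts of VGLL4, of YAP1 and of TAZ, with a nuclear localization signal, a fusion that keeps YAP1 and TAZ from binding TEAD transcription factors. The ad-GFP virus carried GFP and served as control. Polyadenylated RNA was sequenced at 12, 24 and 48 h, with 3 libraries in each of the 6 groups, 18 altogether. No group lacked virus, so all changes are relative to transduced cells of 1 cell line. In the study's cell experiments, wells of both arms were set up together and treatments given to neighbouring wells, and the libraries are described as triplicates. The sources do not say whether each came from a well of its own, so p-values measure the spread between these libraries, which may be technical.

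IL-1α and IL-1β bind the receptor IL1R1, which then recruits IL1RAP and signals through MYD88 and IRAK kinases to NF-κB. The antagonist made from IL1RN occupies IL1R1 without recruiting IL1RAP, and the antagonist made from IL36RN does the same at the IL-36 receptor IL1RL2. IL-1α, IL-33 and IL-18 are kept as precursors in epithelial cells, and in human epidermis loss of either antagonist is known to cause severe pustular inflammation. RNA levels say nothing of the processing and release that these cytokines need.

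Recovered depth lay between 14.2 and 26.7 M reads per library. Levels are the deposited CPM values, reads scaled to library size and normalized by the trimmed mean of M values (TMM). In these values 1 read had been added to every gene, which weighs on the lowest member, IL36RN. Changes are log2 differences ± SE from limma after a pseudocount of 1, so they understate the fold change of low genes. P-values were adjusted over 13417 tested genes, and the call demanded both an adjusted p below 0.05 and a 1.5-fold change or more. The labels were checked on the TEAD targets CTGF and CYR61. At 48 h CTGF stood at 62.1 ± 5.37 (SD, n = 3) with ad-GFP and 7.06 ± 0.376 with ad-TEADi, and CYR61 at 499 ± 16.2 and 158 ± 7.41. Of 12 keratinocyte markers 12 were listed, and their summed level lay between 24758 and 52041 over all libraries. At 48 h this sum was 39250 to 39712 with ad-GFP and 48953 to 52041 with ad-TEADi, so it too was higher with ad-TEADi. KRT15, DSG3 and PKP1 were called higher there, 3 of 12 against 6.27% of all tested genes. Of 12 macrophage and dendritic cell markers 4 were listed: CD14 and CSF1R reached at most 1.33 and 1.99 and were called higher with ad-TEADi at 48 h, ITGAM stayed under 1, and CD68, a lysosomal protein that other cells also make, lay between 15.4 and 56.7. Their summed level at 48 h was 34.3 to 39.96 with ad-GFP and 50.5 to 59.7 with ad-TEADi, so it moved with the members that rose, and its part in these results was not tested. None of 3 mast cell or 4 T cell markers was listed. Of 8 fibroblast markers 5 were listed, with a summed level at 48 h of 22.2 to 25.8 with ad-GFP and 49.1 to 51.9 with ad-TEADi. COL1A1, a collagen chain, was called higher there (20.4 ± 1.93 and 39.5 ± 1.49), as was DCN, the matrix proteoglycan decorin (0.153 ± 0.0241 and 8.34 ± 1.75), while THY1 was called lower (-0.60 ± 0.15). DCN passed the filter through that group alone. Of 4 endothelial markers 2 were listed, with a sum of 0.303 to 0.562 against 1.03 to 1.502, and of 6 melanocyte markers 2, with 1.56 to 1.97 against 0.890 to 1.49. Between viruses at 48 h, the fibroblast and endothelial sums moved with the members that rose, IL33 among them. In ad-GFP cells at 12 h the fibroblast sum was 42.5 to 47.5 and the endothelial sum 0.302 to 0.649. The macrophage and dendritic cell sum was 35.6 to 42.1 there. Mean IL33 with ad-GFP was 1.84 at 12 h and 4.04 at 48 h. The part of these sums in the results was not tested. In bulk RNA, fewer cells of a type and less RNA per cell cannot be told apart.

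Of the 8 members 5 lie in a cluster on chromosome 2, in hg19 coordinates and in the order IL1A (113531492 to 113542168, minus strand), IL1B (113587328 to 113594481, minus), IL36G (113730780 to 113743243, plus), IL36RN (113816215 to 113822960, plus) and IL1RN (113864791 to 113891594, plus). IL33 lies on chromosome 9 (6215805 to 6257984, plus), IL18 on chromosome 11 (112013974 to 112034841, minus) and IL1RAP on chromosome 3 (190231840 to 190375844, plus). IL18 overlaps an annotated protein-coding gene on the opposite strand, and the sources used here do not state whether strand was used in counting. Within the cluster, IL1A and IL1B were called lower and IL36G and IL1RN higher under ad-TEADi at 48 h. Among all tested genes 6.30% were called lower there and 6.27% higher. IL36RN was called higher too, but it passed the filter on low values through that group alone.

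Promoter windows, from 250 bases before to 50 after the start site, are shown for the IL-1 agonist pair, which fell, and for both antagonists. RefSeq on GRCh38.p14 held 12 windows for 7 of the 8 members, with IL18 not among them. Each sequence is printed 5′ to 3′ on the strand of its gene, with matches to the searched motifs in capitals. The IL1A window is chr2:112784444-112784743, that of IL1B chr2:112836730-112837029, that of IL1RN chr2:113117721-113118020 and that of IL36RN chr2:113058388-113058687.
IL1A: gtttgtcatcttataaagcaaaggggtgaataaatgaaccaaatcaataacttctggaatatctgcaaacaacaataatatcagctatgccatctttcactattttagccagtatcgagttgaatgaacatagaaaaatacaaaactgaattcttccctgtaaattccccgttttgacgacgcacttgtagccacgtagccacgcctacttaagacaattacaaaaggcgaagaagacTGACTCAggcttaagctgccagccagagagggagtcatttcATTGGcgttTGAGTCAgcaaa
IL1B: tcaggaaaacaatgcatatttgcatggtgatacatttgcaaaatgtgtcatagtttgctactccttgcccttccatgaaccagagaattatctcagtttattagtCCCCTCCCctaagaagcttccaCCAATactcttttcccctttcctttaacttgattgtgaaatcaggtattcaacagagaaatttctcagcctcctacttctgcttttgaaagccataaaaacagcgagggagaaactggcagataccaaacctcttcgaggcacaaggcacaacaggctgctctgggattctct
IL1RN: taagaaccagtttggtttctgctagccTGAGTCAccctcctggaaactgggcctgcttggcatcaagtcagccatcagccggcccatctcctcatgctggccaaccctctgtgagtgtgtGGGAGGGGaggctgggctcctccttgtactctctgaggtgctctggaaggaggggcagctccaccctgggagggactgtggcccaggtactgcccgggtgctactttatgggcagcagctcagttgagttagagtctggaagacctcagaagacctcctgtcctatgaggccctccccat
IL36RN: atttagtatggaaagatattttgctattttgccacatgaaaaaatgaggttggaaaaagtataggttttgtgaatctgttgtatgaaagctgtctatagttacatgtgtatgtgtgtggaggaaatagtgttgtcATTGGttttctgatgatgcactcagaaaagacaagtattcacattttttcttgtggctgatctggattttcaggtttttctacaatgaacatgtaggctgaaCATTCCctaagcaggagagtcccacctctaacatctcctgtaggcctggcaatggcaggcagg
Motifs were searched on both strands. The IL1A window held the AP-1 letters TGANTCA at -12 and +38, counted from the start site, and the IL1RN window held them at -223. These letters occurred in 7.71% of the 35116 RefSeq windows of the same length. The TEAD letters GGAATG occurred in 14.03% of all windows and, among the members, in the IL36RN window alone, at -13 on the reverse strand (printed as CATTCC). The letters CCAAT, present in 34.6% of all windows, were found in windows of 6 members, and the KLF letters CCNCNCCC, present in 56.2%, in windows of 5. The NF-kB motif, present in 1.91%, was found in windows of 1 member, IL1RN, at an alternative start not printed here. The percentages count single windows, while a member was counted if any of its windows held the letters. Counts of members can therefore not be read as more than these shares. The IL1A capitals ATTGG are CCAAT on the reverse strand, and the IL1RN capitals GGGAGGGG are the KLF letters on the reverse strand. A match is a description of letters and shows no binding.

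**Figure D1:**
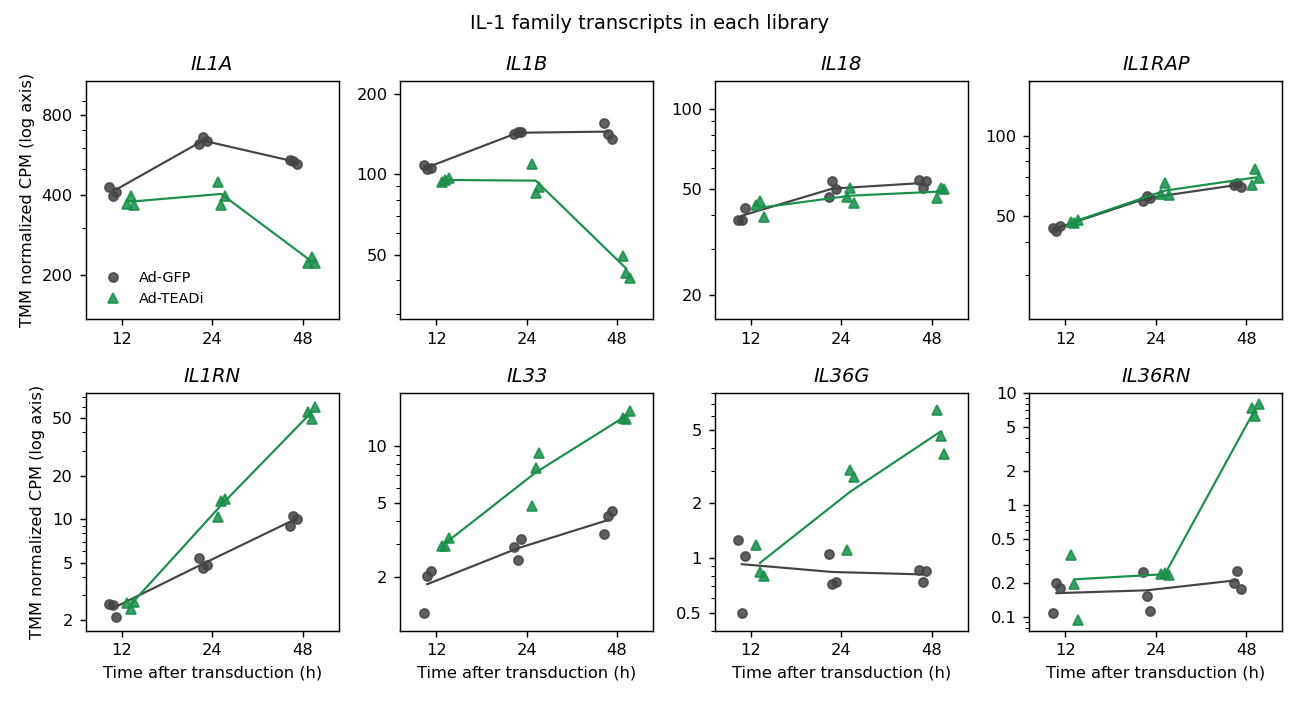
Level of each of the 8 transcripts (TMM normalized CPM, log axis) at 12, 24 and 48 h in the 3 ad-GFP libraries (grey circles) and the 3 ad-TEADi libraries (green triangles) of each time, with lines through the group means. IL1A and IL1B part downwards from the control, IL1RN, IL33 and IL36G part upwards by 24 h, and IL36RN is near 0.2 until it stands between 6.19 and 8.06 in the ad-TEADi libraries at 48 h.

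Members were compared with each other as CPM per kilobase of transcript. In ad-GFP cells at 48 h IL1A stood first at 265 ± 5.06, followed by IL1B at 95.9 ± 7.05 and IL18 at 47.4 ± 1.87. IL1RAP followed at 13.8 ± 0.194 and IL1RN at 5.81 ± 0.499, while IL33, IL36G and IL36RN had 1.504 ± 0.215, 0.671 ± 0.0562 and 0.0818 ± 0.0161. The control cells thus carried agonist transcripts of the IL-1 pair far above their antagonist, and in this group no neighbours in the order overlapped. In ad-TEADi cells at 48 h the order had changed. IL1A remained first at 112 ± 3.30, IL18 was second at 44.02 ± 2.16, and IL1RN at 32.4 ± 3.17 stood beside IL1B at 29.4 ± 3.02. The libraries of IL1RN and IL1B overlapped there, as did those of IL33 (5.39 ± 0.288) with IL36G (4.08 ± 1.14) and of IL36G with IL36RN (2.77 ± 0.366).

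At 12 h no member was called, against 0.0447% of all tested genes, and no member passed the adjusted p alone, against 1.10%. At 24 h 5 of 8 members were called, 3 higher (IL1RN, IL33, IL36G) and 2 lower (IL1A, IL1B), against 1.79% of all tested genes (1.16% higher and 0.626% lower). At 48 h the same 5 were called, against 12.6% of all tested genes (6.27% higher and 6.30% lower). IL36RN was called higher as well, which made 6 of 8, but it passed the filter on low values through that group alone and so had to differ. The libraries of the 2 viruses did not overlap for 4 members at 12 h, 6 at 24 h and 6 at 48 h, against 21.9%, 34.2% and 58.6% of all tested genes. The agonists did not move as a block: IL1A and IL1B were lower, IL33 and IL36G were higher like the antagonists, and IL18 and IL1RAP were not called at any time.

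**Figure D2:**
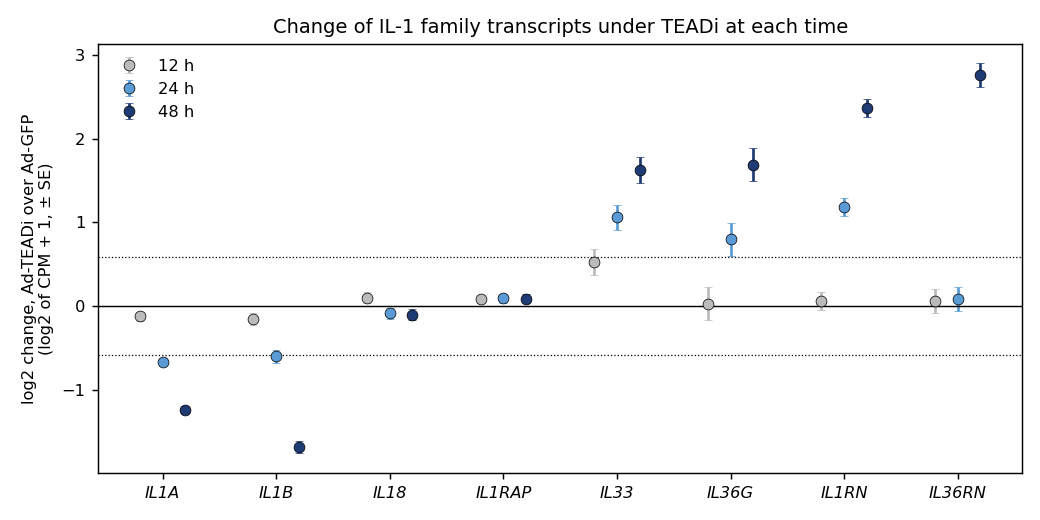
Change of each transcript, ad-TEADi over ad-GFP (log2 of CPM + 1, limma estimate ± SE, 3 libraries a group), at 12 h (grey), 24 h (light blue) and 48 h (dark blue), with dotted lines at the fold limit of 1.5. IL1A and IL1B reach -1.24 and -1.69, IL1RN 2.37 and IL36RN 2.75 at 48 h.

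IL1A, the alarmin stored in keratinocytes, fell under ad-TEADi from 24 h on. At 12 h the ad-GFP libraries held 427, 398 and 411 CPM and the ad-TEADi libraries 370, 397 and 366. The groups were next to each other without overlap, and the change of -0.13 ± 0.05 was not called (adjusted p = 0.189). At 24 h the levels were 619, 661 and 639 with ad-GFP and 449, 366 and 396 with ad-TEADi. At 48 h they were 543, 538 and 523 against 222, 233 and 222, a level 2.37-fold lower with ad-TEADi. The fall was by 0.67 ± 0.05 at 24 h (adjusted p = 1.1e-10) and by 1.24 ± 0.05 at 48 h (adjusted p = 2.3e-18). Over time the difference arose in steps. From 12 to 24 h IL1A rose with ad-GFP by 0.63 ± 0.05 (adjusted p = 5.5e-11) and changed by 0.09 ± 0.05 with ad-TEADi (adjusted p = 0.159). From 24 to 48 h it fell by 0.83 ± 0.05 with ad-TEADi (adjusted p = 1.2e-14), while the ad-GFP change of -0.26 ± 0.05 was below the fold limit.

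IL1B, the secreted IL-1 that inflammasomes activate, was likewise lower with ad-TEADi from 24 h on. The ad-GFP libraries held 108, 104 and 106 CPM at 12 h, 141, 144 and 144 at 24 h, and 156, 142 and 135 at 48 h. The ad-TEADi libraries held 93.2, 95.1 and 97.2, then 110, 85.1 and 89.3, then 49.5, 42.5 and 41.0. The groups did not overlap at any time. The change was -0.16 ± 0.08 at 12 h (adjusted p = 0.288), and IL1B fell by 0.60 ± 0.08 at 24 h (adjusted p = 1.1e-05) and by 1.69 ± 0.08 at 48 h (adjusted p = 2.3e-13). At 48 h the level was 3.26-fold lower with ad-TEADi. The 24 h value was just past the fold limit: without ad-TEADi replicate 2 it was -0.53 and without replicate 3 it was -0.56, neither of which was called. The ad-TEADi change between 12 and 24 h was -0.02 ± 0.08 (adjusted p = 0.889), and IL1B fell by 1.07 ± 0.08 from 24 to 48 h (adjusted p = 2.4e-10). In ad-GFP cells the 12 to 24 h change was 0.43 ± 0.08, below the fold limit, and the 24 to 48 h change 0.01 ± 0.08.

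IL1RN, the IL-1 receptor antagonist, moved the opposite way. At 12 h the libraries overlapped, with 2.60, 2.55 and 2.12 CPM for ad-GFP and 2.63, 2.404 and 2.68 for ad-TEADi. At 24 h ad-GFP libraries held 5.36, 4.58 and 4.85 and ad-TEADi libraries 10.5, 13.4 and 13.8. At 48 h they held 8.95, 10.6 and 10.1 against 55.8, 49.6 and 60.3, a level 5.59-fold higher with ad-TEADi. IL1RN was thus higher in 3 of 3 ad-TEADi libraries at both later times. The change was 0.06 ± 0.11 at 12 h (adjusted p = 0.805), 1.18 ± 0.11 at 24 h (adjusted p = 1.4e-09) and 2.37 ± 0.11 at 48 h (adjusted p = 4.7e-18). IL1RN was also called higher over both intervals in the control, by 0.79 ± 0.11 from 12 to 24 h (adjusted p = 7.1e-07) and by 0.88 ± 0.11 from 24 to 48 h (adjusted p = 7.1e-08). With ad-TEADi the same steps were 1.92 ± 0.11 and 2.06 ± 0.11.

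Within each library, the IL1A to IL1RN transcript ratio per kilobase gives the balance of agonist and antagonist RNA. With ad-GFP it was 145 ± 17.02 at 12 h, 110 ± 12.2 at 24 h and 45.9 ± 4.65 at 48 h (SD, n = 3). With ad-TEADi it was 125 ± 13.1, 27.9 ± 7.31 and 3.48 ± 0.447. The ratio thus declined in the control too, and at 48 h all ad-TEADi libraries (3.10 to 3.97) lay below all ad-GFP libraries (42.9 to 51.3). The IL1B to IL1RN ratio at 48 h was 16.7 ± 2.66 with ad-GFP and 0.913 ± 0.127 with ad-TEADi, where 2 libraries were below 1 and the other at 1.002. Without length scaling, the IL1RN to IL1B ratio in these ad-TEADi libraries was 1.13 to 1.47. Where a ratio stands against 1 thus depends on the transcript length used. The inverse ratio, IL1RN to IL1A, was 13.3-fold higher with ad-TEADi at 48 h, and that fold does not depend on transcript length. The ratios are a description with no test of their own.

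**Figure D3:**
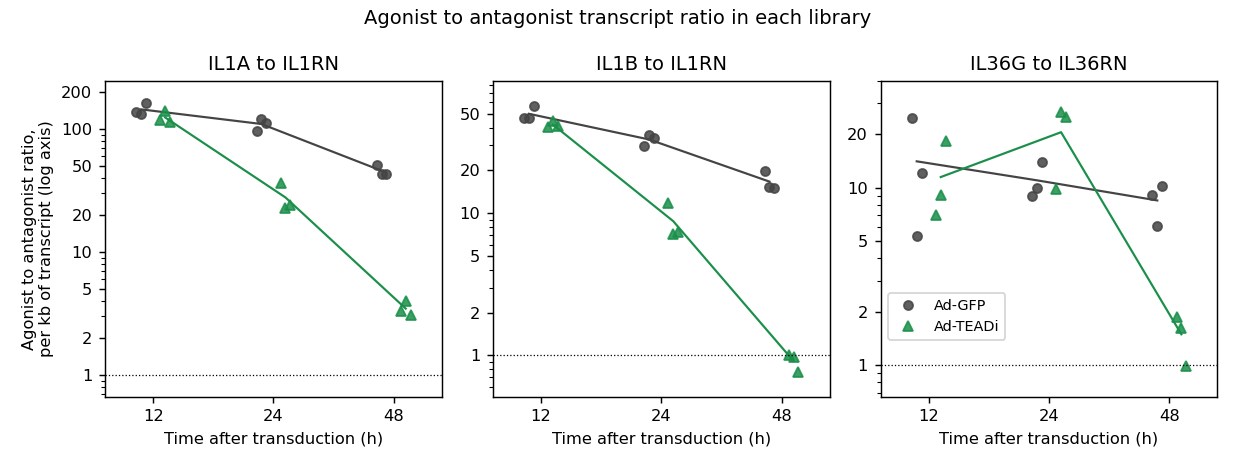
Agonist to antagonist ratio in each library, as CPM per kilobase of transcript (log axis), for IL1A to IL1RN, IL1B to IL1RN and IL36G to IL36RN at 12, 24 and 48 h, with ad-GFP as grey circles, ad-TEADi as green triangles, lines through group means and a dotted line at 1. At 48 h the ad-TEADi libraries lie at 3.10 to 3.97, 0.768 to 1.002 and 0.994 to 1.87, below the ad-GFP libraries in all 3 panels. Outside ad-TEADi at 48 h, the IL36G to IL36RN ratios rest on few IL36RN reads and the added read. Where a ratio stands against the dotted line depends on the transcript length used.

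IL33, an alarmin held in the nucleus that signals through IL1RL1, rose although it is an agonist. The ad-GFP libraries held 1.30, 2.05 and 2.18 CPM at 12 h, 2.91, 2.47 and 3.20 at 24 h, and 3.39, 4.24 and 4.49 at 48 h. The ad-TEADi libraries held 2.94, 2.94 and 3.25, then 4.82, 7.65 and 9.21, then 14.1, 13.9 and 15.4. All ad-TEADi libraries lay above all ad-GFP libraries at each time, already at 12 h. The 12 h change of 0.52 ± 0.15 had an adjusted p of 0.0714 and was not called. The rise was 1.06 ± 0.15 at 24 h (adjusted p = 6.0e-06) and 1.62 ± 0.15 at 48 h (adjusted p = 2.0e-10). In recovered reads summed over 3 libraries, 862 with ad-TEADi and 263 with ad-GFP at 48 h gave a depth-scaled ratio of 3.57 (95% interval 3.11 to 4.12, covering counting error only).

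IL36G, the keratinocyte agonist of IL1RL2, was near the limit of this depth in control cells. Its ad-GFP libraries held between 0.499 and 1.248 CPM at all 3 times, from 9 to 22 reads each. With ad-TEADi it stood at 1.18, 0.834 and 0.800 at 12 h, 1.11, 3.04 and 2.78 at 24 h, and 6.44, 4.64 and 3.73 at 48 h. At 24 h replicate 1 lay just above the highest control library, 1.05, and the other 2 well above it. The rise was 0.80 ± 0.20 at 24 h (adjusted p = 0.00547) and 1.69 ± 0.20 at 48 h (adjusted p = 7.2e-08). Without ad-TEADi replicate 2 the 24 h value was 0.62 with an adjusted p of 0.0519 and the call was lost. In recovered reads the ratio was 2.93 (2.10 to 4.18) at 24 h and 6.41 (4.73 to 8.83) at 48 h. These intervals cover counting error only and leave out the spread between libraries. At 24 h the ad-TEADi libraries held 22, 61 and 81 reads.

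IL36RN, the antagonist at the same receptor, appeared late. In the 15 libraries other than ad-TEADi at 48 h it had 1 to 6 reads and between 0.0941 and 0.361 CPM, much of it the added read. At 48 h the ad-GFP libraries held 0.202, 0.259 and 0.178 CPM from 3, 5 and 3 reads, and the ad-TEADi libraries 7.42, 6.19 and 8.06 from 143, 139 and 144 reads. All ad-TEADi libraries lay far above all others. The fitted change was 2.75 ± 0.14, given as a description, since the filter was passed through this group alone. In recovered reads, 426 against 11 gave a ratio of 42.2 with an interval of 23.3 to 85.2, again for counting error only. At 24 h 14 against 7 reads gave a ratio of 1.61 with an interval of 0.608 to 4.71, so a difference was not detectable at this depth. The IL36G to IL36RN ratio per kilobase was 8.49 ± 2.14 with ad-GFP and 1.49 ± 0.449 with ad-TEADi at 48 h. The ad-GFP value rests on 3, 5 and 3 IL36RN reads plus the added read. With the filter passed through the ad-TEADi group alone, this contrast is a description. At 24 h the ratio was 11.02 ± 2.62 and 20.6 ± 9.29, with overlapping libraries and few IL36RN reads beneath it. Without length scaling, the IL36RN to IL36G ratio at 48 h was 1.15 to 2.16 with ad-TEADi. The order of these 2 transcripts there thus depends on the transcript length used.

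IL18, which keratinocytes hold as a precursor for caspase-1, and IL1RAP were not called between viruses at any time. IL18 lay between 38.4 and 54.1 CPM over all 18 libraries, with overlapping groups at each time. At 48 h the ad-GFP libraries held 54.1, 50.4 and 53.9 and the ad-TEADi libraries 46.3, 50.7 and 50.3. The 48 h change was -0.10 ± 0.06 with a 95% interval of -0.24 to 0.03 (adjusted p = 0.183), which leaves out a fold change of 1.5 in either direction. IL1RAP at 48 h held 65.4, 66.2 and 64.4 with ad-GFP and 65.0, 74.7 and 69.2 with ad-TEADi, a change of 0.09 ± 0.05 with an interval of -0.02 to 0.20 (adjusted p = 0.170), again short of that fold. All ad-TEADi libraries of IL1RAP lay above all ad-GFP libraries at 12 h (47.1 to 48.3 against 43.97 to 45.9) and at 24 h (59.7 to 66.3 against 57.0 to 59.4), with changes of 0.08 ± 0.05 (adjusted p = 0.422) and 0.09 ± 0.05 (adjusted p = 0.263). Between 12 and 24 h IL1RAP changed by 0.37 ± 0.05 with ad-GFP and by 0.38 ± 0.05 with ad-TEADi, both past the adjusted p and below the fold limit.

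Timing was tested as the difference between the responses to ad-TEADi at successive times. From 12 to 24 h the response of IL1RN grew by 1.12 ± 0.15 (adjusted p = 1.4e-05), the single member called of 8, against 0.969% of all tested genes called higher. IL1A (-0.54 ± 0.07, adjusted p = 1.4e-05) and IL1B (-0.44 ± 0.11, adjusted p = 0.0128) met the adjusted p without reaching the fold limit. Without ad-TEADi 24 h replicate 1, IL1A (-0.62), IL33 (0.77) and IL36G (1.07) were called as well. Without ad-GFP 12 h replicate 1 IL33 was added (0.68), and without replicate 2 IL36G (0.94). From 24 to 48 h 4 members were called, against 6.06%: IL1RN grew by a further 1.18 ± 0.15 (adjusted p = 5.7e-07), IL36RN, with the same limit of the filter, by 2.67 ± 0.20 and IL36G by 0.89 ± 0.28 (adjusted p = 0.0245), and IL1B moved down by a further 1.09 (-1.09 ± 0.11, adjusted p = 3.5e-07). IL1A passed the adjusted p at -0.57 ± 0.07, just short of the fold limit, and it was called when any 1 of 5 of the 12 libraries was left out (-0.59 to -0.64). IL33 (0.56 ± 0.22, adjusted p = 0.0624) was called without ad-TEADi 24 h replicate 3 (0.74). The IL36G call was lost without any 1 of 4 libraries, with values between 0.59 and 0.86 and adjusted p between 0.0580 and 0.0952. On deposited TPM values with the same pseudocount, the IL1RN call from 12 to 24 h was lost (0.30) and IL1A was called (-0.63), and the IL36G call from 24 to 48 h was lost (0.22). No test set one member against another.

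At 24 h the ad-TEADi libraries were uneven. In 5 of the 5 members called, replicate 1 was the library nearest to the control. Its levels were 449 CPM for IL1A, 110 for IL1B, 10.5 for IL1RN, 4.82 for IL33 and 1.11 for IL36G. Without it the same 5 members were called at 24 h, with changes of -0.75, -0.71, 1.30, 1.29 and 1.09 in that order.

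Over time within each virus, 2 members were called between 12 and 24 h with ad-GFP (IL1A and IL1RN, against 4.28% of tested genes) and 1 between 24 and 48 h (IL1RN, against 6.28%). With ad-TEADi 3 were called in the first interval (IL1RN, IL33 and IL36G, against 5.54%) and 6 in the second (4 higher, IL36RN among them, and 2 lower, against 15.4%). These comparisons share libraries with those between viruses and are set side by side for that reason alone. The rise of IL33 with ad-TEADi was 0.99 ± 0.15 and then 0.95 ± 0.15, and that of IL36G 0.72 ± 0.20 and then 0.87 ± 0.20. In the control, IL33 changed by 0.45 ± 0.15 and 0.38 ± 0.15, below the fold limit, and IL36G by -0.05 ± 0.20 and -0.02 ± 0.20.

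The receptors of the family are the inlets for these ligands. Of 8 receptors, co-receptors and decoys on the list 7 were listed and tested, and at 48 h 0 were higher and 2 lower, against 6.30% lower among all tested genes. Both that fell were low. IL1RL1, the IL-33 receptor, stood at 1.71 ± 0.190 with ad-GFP and 0.233 ± 0.158 with ad-TEADi, a fall by 1.14 ± 0.16 (adjusted p = 2.1e-07). IL1RL1 would not have passed the filter on low values without the ad-GFP group at 48 h, so its value is a description. SIGIRR, an inhibitory receptor of the family, stood at 5.48 ± 0.806 and 2.07 ± 0.542, a fall by 1.09 ± 0.15 (adjusted p = 1.7e-07). IL1R1, the signalling IL-1 receptor, had 11.4 ± 0.535 and 12.8 ± 1.08 (0.15 ± 0.09, adjusted p = 0.168). IL1RL2, the IL-36 receptor, had 4.63 ± 0.287 and 3.45 ± 0.213 (-0.34 ± 0.11), and IL18R1, the IL-18 receptor, 3.95 ± 0.128 and 2.52 ± 0.788 (-0.51 ± 0.12), both below the fold limit. Without ad-TEADi 48 h replicate 2, IL18R1 was called at -0.69. Other ligands of the family (IL36A, IL36B, IL37 and IL1F10) were not analysed here.

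Genes for processing and release moved unevenly. Of 16 on the list 15 were tested, and at 48 h 3 were higher and 1 lower, against 6.27% higher and 6.30% lower among all tested genes. NLRP3, the sensor of the inflammasome that activates IL-1β, fell by 1.10 ± 0.17 at 24 h (adjusted p = 2.4e-05) and by 1.59 ± 0.17 at 48 h (adjusted p = 8.1e-09), where it stood at 4.76 ± 0.637 with ad-GFP and 0.915 ± 0.124 with ad-TEADi. PYCARD, the adaptor of the same complex, rose from 23.9 ± 0.579 to 44.1 ± 2.52 (0.85 ± 0.08, adjusted p = 1.5e-10). The lysosomal proteases CTSC and CTSD rose by 0.72 ± 0.04 and 0.71 ± 0.04. NLRP1, the inflammasome sensor prominent in human keratinocytes, changed by 0.33 ± 0.05, below the fold limit. Of 22 signalling genes 21 were tested and 1 was called at 48 h, against 12.6% of all tested genes. It was higher: IRAK3, a brake on IRAK kinases named after its value was seen, with 0.376 ± 0.158 and 1.56 ± 0.283 (0.89 ± 0.16, adjusted p = 1.2e-05). IRAK3 would not have passed the filter on low values without the ad-TEADi group at 48 h, so its value is a description. IRAK2 (0.57 ± 0.07), REL (0.55 ± 0.07), TOLLIP (0.42 ± 0.06), TAB3 (0.32 ± 0.05) and NFKB1 (-0.41 ± 0.04) passed the adjusted p below the fold limit. The count for signalling rose to 4 without ad-GFP 48 h replicate 2, with IRAK2 at 0.61, REL at 0.59 and IKBKG, whose reads are shared with a near-identical copy and which is not interpreted. It was 2 without ad-TEADi 48 h replicate 2 (IRAK2 at 0.66) and 2 without replicate 3 (REL at 0.59).

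Targets that IL-1 is known to induce split in direction. Of 30 on the list 25 were listed and 24 tested, and at 24 h 4 were higher and 2 lower, against 1.79% called either way. At 48 h 6 were higher and 8 lower, against 12.6%, and the median change of the 24 was -0.13. Those that fell were mostly chemokines and cytokines. CXCL1, a neutrophil chemokine, fell by 0.78 ± 0.09 at 24 h and 1.32 ± 0.09 at 48 h, from 32.5 ± 4.18 to 12.3 ± 0.443 at the latter. PTGS2, which makes prostaglandins, fell by 0.73 ± 0.06 and 1.60 ± 0.06, from 108 ± 1.52 to 35.0 ± 2.44. CSF3, a granulocyte growth factor, stood at 68.4 ± 1.83 and 69.1 ± 2.37 at 24 h and fell by 0.92 ± 0.06 at 48 h. CXCL2, CXCL3, CCL20, LCN2 and IL23A were the others called lower, with IL23A no longer called without ad-GFP 48 h replicate 1 (-0.55). Some of those that rose are also known in keratinocyte differentiation or matrix turnover. S100A8 and S100A9, the subunits of calprotectin, rose by 4.62 ± 0.17 and 4.04 ± 0.19 at 48 h, and the proteases MMP1 and MMP9 by 4.20 ± 0.17 and 3.52 ± 0.11. SOD2, the mitochondrial superoxide dismutase, rose from 159 ± 1.75 to 300 ± 11.7 (0.91 ± 0.05), and PI3, an elastase inhibitor at 0.674 ± 0.0838 with ad-GFP and 1.67 ± 0.317 with ad-TEADi that passed the filter through the latter group alone, was called at 0.67 but not without ad-TEADi 48 h replicate 3 (0.58). The members and these lists were chosen with results of these data known, so the counts describe them and are not independent support.

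**Figure D4:**
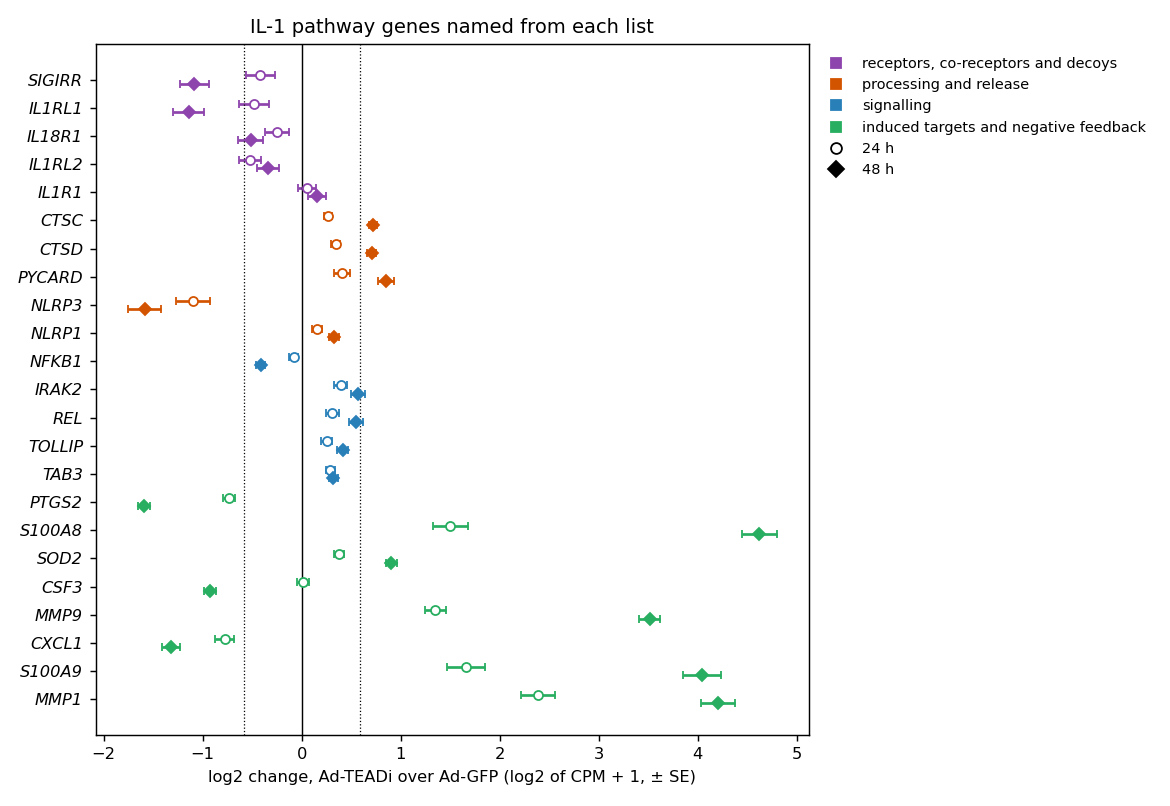
Change of the pathway genes named from each list, ad-TEADi over ad-GFP (log2 of CPM + 1, limma estimate ± SE, 3 libraries a group), at 24 h (open circles) and 48 h (filled diamonds), coloured by list, with dotted lines at the fold limit of 1.5. S100A8, S100A9, MMP1 and MMP9 lie between 3.52 and 4.62 at 48 h, and PTGS2, CXCL1 and NLRP3 between -1.32 and -1.60.

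Patterns over all 18 libraries were compared by Pearson's r of log2 values across 10146 genes, or 10147 for IL36RN. The comparison is a description, since the libraries share groups and times. The course of IL1A was most like that of LPAR1 (0.970), a lysophosphatidic acid receptor, TNFSF15 (0.970), a cytokine of the tumor necrosis factor family, and IL1B (0.968). For IL1B these were FLII (0.983), an actin-binding protein, COL8A1 (0.983), a collagen chain, and LPAR1 (0.982). IL1RN was most like SOD2 (0.994), PKP1 (0.993), a desmosomal plaque protein, and MALL (0.993). The genes most like IL36RN were PCGF3 (0.977), IVL (0.977), the cornified envelope precursor involucrin, and SPRR1A (0.973), another envelope precursor. IL36RN had few reads outside ad-TEADi at 48 h, so its r mainly reflects how far that group stands apart. Of the members, IL33 was nearest to IL1RN, at 0.947.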

How the data were processed

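RNA of N/TERT2G cells was sequenced 12, 24 and 48 h after ad-TEADi or ad-GFP, 3 libraries each. The sample labels gave groups and replicate numbers. According to the submitters' processing notes, the tools and build were Trimmomatic 0.36, STAR 2.5.1, Partek 8.0.19.0819 and hg19. The authors deposited TMM normalized CPM values and TPM values for 15896 genes kept at 8 reads or more. They also deposited p-values, q-values, ratios and fold changes of their own comparisons, which were not used. The lowest CPM value of a library is an added read, so reads were recovered as value over minimum, less 1. Between 75.3% and 78.1% of low reads were whole to within 0.01, and a model of whole counts was therefore not used. The deposited TPM values follow genomic span, introns included (99.3% of genes within 1%), so ratios and orders between members used CPM per kilobase of GENCODE canonical transcript in place of the TPM first planned.

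Tests ran on the 13417 genes that reached 1 in 3 libraries or more. A model of 6 group means was fitted to log2 of value plus 1 (limma 3.58.1, R 4.3.3), with trend and robust moderation, and Benjamini-Hochberg adjustment covered every tested gene. A call required an adjusted p below 0.05 together with a 1.5-fold change or more. Read ratios have exact conditional 95% intervals for counting error, scaled by depth. The fit was also run on simulated counts that gave all genes the same fixed spread. That run cannot show how the calls behave in these libraries. Python 3.11.15 with pandas 2.3.3, SciPy 1.17.1 and matplotlib 3.10.9 served for the rest. Named genes are the 8 members, up to 5 genes per pathway list by adjusted p at 48 h with any called at 24 h, and the 3 genes most alike with a mean of at least 5. Members and lists were chosen with earlier results of these data known. Alternatives varied pseudocount, filter, scaling, variance model, thresholds, a replicate block and each library in turn. Voom weights on recovered reads, removal of the added read and ratios per kilobase were added after seeing the data.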

Additional observations from a re-analysis of the deposited data

Results flagged for a closer look

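The response to ad-TEADi differed between times for several members, by the limma test of the difference itself on log2 of CPM plus 1. Between 12 and 24 h it differed for IL1A (-0.54 ± 0.07, adjusted p = 1.4e-05), IL1B (-0.44 ± 0.11, adjusted p = 0.0128) and IL1RN (1.12 ± 0.15, adjusted p = 1.4e-05). Between 24 and 48 h it differed for IL1A (-0.57 ± 0.07, adjusted p = 5.4e-07), IL1B (-1.09 ± 0.11, adjusted p = 3.5e-07), IL1RN (1.18 ± 0.15, adjusted p = 5.7e-07), IL36G (0.89 ± 0.28, adjusted p = 0.0245) and IL36RN (2.67 ± 0.20, adjusted p = 2.0e-11). IL36RN passed the filter on low values through the ad-TEADi group at 48 h alone, so its value is a description. Each value is the later minus the earlier response. Members are listed here at an adjusted p below 0.05 with no fold limit. That threshold was passed by 9.91% of all tested genes between 12 and 24 h and by 20.8% between 24 and 48 h. With the fold limit, 1 and 4 members were called. With 3 libraries a group, single libraries were not screened for outlying values.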

How the results depend on the processing

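Of 1437 member values under alternatives, 1366 kept their direction or stayed uncalled as before, 46 lost a call, 25 gained one and 0 reversed. Between viruses, the 5 calls at 24 h became 3 with a pseudocount of 5 (IL1B and IL36G lost), 3 with a mean of at least 10, which leaves 5 members tested, 1 on deposited TPM and 2 at a stricter threshold (adjusted p below 0.01, 2-fold or more). The 6 calls at 48 h became 3 with the mean filter, which removes IL33, IL36G and IL36RN, and 4 on TPM (IL33 at 0.28 and IL36G at 0.37 lost). For the change of response, 1 call became 3 with no fold limit between 12 and 24 h, against 9.91% of all tested genes. Between 24 and 48 h, 4 became 2 with the mean filter. For ad-GFP, 2 calls from 12 to 24 h became 1 with the pseudocount of 5, 1 on TPM, 0 at the stricter threshold and 6 with no fold limit, and 1 call from 24 to 48 h became 0, 0, 0 and 4. With no fold limit, 37.1% and 45.9% of all tested genes passed in these ad-GFP intervals. For ad-TEADi, 3 calls from 12 to 24 h became 1 with the mean filter, 0 on TPM and 1 at the stricter threshold, and 6 from 24 to 48 h became 3 with the mean filter and 3 at the stricter threshold. The pseudocount of 1 exceeds the TPM of low members, which shrinks their changes. Of the ratio values on TPM or without length, 23 moved and 5 stayed the same, since the level of a ratio depends on the length used. With each library left out, counts ranged from 3 to 5 and stayed at 6 between viruses at 24 and 48 h, and stayed at 0 at 12 h. They ranged from 1 to 4 and 3 to 6 for the changes of response, from 2 to 3 and 5 to 6 over time with ad-TEADi, and stayed at 2 and 1 with ad-GFP.

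Replicate numbers are not stated to pair libraries. Same-numbered deviations correlated between -0.109 and 0.0907, so the numbers were not taken as pairs. With the number as a replicate block, 5 and 6 members were called at 24 and 48 h, and no count of member calls changed. Median-of-ratios rescaling and TPM moved the median of all genes by less than 0.1. The IL36G change of response between 24 and 48 h also lost its call with a pseudocount of 0.1 (adjusted p = 0.0634), without trend and robust options (0.0601) and with voom weights (0.148). The cause was not tested. Depth limits IL36RN before 48 h and IL36G in the control.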
